A study of Mus musculus with 8 samples.

Results

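Bone morphogenetic proteins (BMPs) are secreted signals of the TGF-beta superfamily, and 9 genes for their ligands, receptors and closely tied proteins were followed here through mouse jejunal crypts that carry an activated BRAF allele. The 9 genes, Bmp1, Bmp2, Bmp3, Bmp4, Bmp7, Bmpr1a, Bmpr2, Acvr1 and Bambi, were taken by symbol from a table of 23951 gene symbols, and all 9 were present. A BMP dimer binds a complex of type I and type II serine/threonine kinase receptors. The type I receptor then phosphorylates Smad1, Smad5 or Smad9, which enter the nucleus with Smad4 and act on target genes. In the intestine BMP signalling rises from the crypt toward the villus, restrains stem cells and limits the formation of new crypts, and inherited loss of human BMPR1A or SMAD4 causes juvenile polyposis.

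RNA sequencing covered 8 libraries in 3 groups. The 3 libraries of SMAD4KO_Braf came from mice with Smad4 f/f and BRAF-V600E f/+, the 2 libraries labelled CDX2KO_Braf from mice with Cdx2 f/f and BRAF-V600E f/+, and the 3 libraries of BRAF from mice with BRAF-V600E f/+ alone. All 3 groups carried Villin-CreER(T2), a tamoxifen-dependent Cre recombinase under an intestinal epithelial promoter, so each group, BRAF included, had the BRAF allele switched on in the epithelium and any stromal or immune cell kept its alleles. Tamoxifen was injected on 4 days in a row, and crypts were collected 1 day later by loosening the epithelium from the mesenchyme with 3 mM EDTA and passing it through a 70 micron filter. The comparisons ask what losing Smad4, the shared Smad of the pathway, or Cdx2, an intestinal homeobox factor, adds to BRAF activation. The labels give no ages and do not say that libraries of a group came from separate mice. By Y-linked genes, SMAD4KO_Braf and BRAF each held libraries of both sexes, so each came from more than 1 mouse. The p-values here cover only library-to-library spread, which may be technical in part or, for the libraries labelled CDX2KO_Braf, in full.

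Values are FPKM, fragments scaled by transcript length and by the mapped total of the library, so levels of different genes can be set side by side. The files give no read counts, and the depth of each library is unknown. The 8 libraries had 10924 to 11570 genes at 1 FPKM or more, and relative depths, read from the steps between low values, of 0.708 to 1.45. Smad4 averaged 8.93 ± 1.61 FPKM in SMAD4KO_Braf and 43.9 ± 2.62 FPKM in BRAF (SD, n = 3 each). Cdx2 went against its label, at 121 and 155 FPKM in the libraries labelled CDX2KO_Braf and 64.2 to 82.6 FPKM in BRAF. The value covers the whole gene and the labels do not name the deleted part, so every direction given for this group rests on the label. By Y-linked genes, library 0 of SMAD4KO_Braf and library 0 of BRAF were from males and the other 6 libraries from females. Epithelial markers (8 genes, Epcam and Vil1 among them) summed to 6524 to 9158 FPKM in SMAD4KO_Braf, 8371 to 9859 in the libraries labelled CDX2KO_Braf and 7288 to 10359 in BRAF. In these bulk samples fewer cells of a type and less RNA per cell cannot be told apart.

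Promoter sequence was used for 4 of the 9 genes, Bmp4, Bmpr1a, Bmpr2 and Acvr1, as windows of 300 bases (250 before the start of the gene to 50 after it) from RefSeq on GRCm38.p6. The motif GGCGCC, a GC-rich element that Smad1 and Smad5 can bind, was searched on both strands. It stood once in the windows of Bmpr1a and Bmpr2 and not in those of Bmp4 and Acvr1, while 11.9% of all 32851 windows held it. Both sites are shown because they are the only ones in the 4 windows, with the motif in capitals and 12 bases on either side.
Bmpr1a: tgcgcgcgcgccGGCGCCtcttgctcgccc
Bmpr2: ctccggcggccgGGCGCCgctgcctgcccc
The Bmpr1a stretch is chr14:34502727-34502756 on the minus strand, with the motif 198 bases before the gene start, inside the GENCODE gene but in no exon. The Bmpr2 stretch is chr1:59764162-59764191 on the plus strand, with the motif 105 bases before the RefSeq start, in an untranslated exon of a longer GENCODE transcript. The Smad4-binding letters CAGAC (in 49.6% of all windows) and the CDX-type letters TTTATTA (4.93%) and TTTATGG (2.75%) were in none of the 4 windows. These matches describe letters only, and binding was not measured.

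Bmp3 had the widest log2 range of the 7 tested genes across the 8 libraries. It encodes an atypical ligand that opposes BMP signalling, and methylation of human BMP3 is used in stool tests for colorectal cancer. Its level was 30.5, 27.6 and 26.7 FPKM in SMAD4KO_Braf, 0.267 and 0.293 FPKM in libraries labelled CDX2KO_Braf, and 18.5, 8.96 and 22.2 FPKM in BRAF. The 3 groups did not overlap, and both libraries labelled CDX2KO_Braf were below 1 FPKM. Bmp3 fell in the libraries labelled CDX2KO_Braf, to a mean 59.0-fold lower than in BRAF and 101-fold lower than in SMAD4KO_Braf. On the log2(FPKM + 1) scale, which understates changes of low genes, the difference from BRAF was -3.69 ± 0.32 (SE; limma, adjusted p = 0.000993, by Benjamini-Hochberg over 12084 genes). The difference from SMAD4KO_Braf on this scale was -4.51 ± 0.32 (adjusted p = 0.000596). Both calls held under every alternative run, with adjusted p of 6.16e-05 to 0.0166 against BRAF and 4.21e-05 to 0.0114 against SMAD4KO_Braf. In SMAD4KO_Braf the mean was 28.3 ± 1.99 FPKM, against 16.5 ± 6.81 FPKM in BRAF (SD, n = 3 each). That difference, 0.82 ± 0.29 on the log2 scale with a 95% interval of 0.14 to 1.51, did not pass (adjusted p = 0.281, 0.175 to 0.563 over the alternatives). It was 0.46 without BRAF library 1, the lowest of its group.

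Bmp2, a ligand made by differentiated intestinal epithelium, was low in SMAD4KO_Braf at 1.63, 1.25 and 2.32 FPKM. It had 10.05 and 7.997 FPKM in the libraries labelled CDX2KO_Braf, and 9.53, 2.67 and 1.93 FPKM in BRAF. Library 0 of BRAF lay with the libraries labelled CDX2KO_Braf and the other two with SMAD4KO_Braf, so BRAF overlapped both groups. The libraries labelled CDX2KO_Braf and SMAD4KO_Braf did not overlap, and their difference of 1.88 ± 0.51 (95% interval 0.69 to 3.08) had an adjusted p of 0.0560, just short of the threshold (0.0059 to 0.252 over the alternatives). It passed without BRAF library 0 (0.0059), which enters through the shared spread, when only these 2 groups were fitted (0.0119), after quantile normalization (0.0483) and when libraries were weighted (0.0464). Against BRAF, the libraries labelled CDX2KO_Braf differed by 1.04 ± 0.51 (interval -0.15 to 2.24, adjusted p = 0.228). Without BRAF library 0 this difference was 1.61 and passed, with an adjusted p of 0.0129. SMAD4KO_Braf differed from BRAF by -0.84 ± 0.46 (interval -1.91 to 0.23, adjusted p = 0.408), which was -0.28 without BRAF library 0 and -0.31 when libraries were weighted. BRAF library 0, male by its Y-linked genes, also had the highest sum of the mature enterocyte markers, 30090 FPKM over 10 genes. SMAD4KO_Braf library 0, also male, had a sum of 20779 FPKM with Bmp2 at 1.63 FPKM. The libraries labelled CDX2KO_Braf, both female, had sums of 8650 and 3688 FPKM with Bmp2 at 10.05 and 7.997 FPKM. With sex as a term the differences of the libraries labelled CDX2KO_Braf were 1.32 from BRAF (adjusted p = 0.102) and 2.16 from SMAD4KO_Braf (adjusted p = 0.0259). The part of enterocyte content in the Bmp2 values was not tested.

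Bmp7, a ligand that can signal through Acvr1, showed one order in both comparisons with BRAF. It had 5.11, 7.37 and 4.26 FPKM in SMAD4KO_Braf, 6.64 and 4.84 FPKM in libraries labelled CDX2KO_Braf, and 2.95, 3.09 and 3.52 FPKM in BRAF. Each of the other 5 libraries was above all 3 of BRAF, but neither difference passed. SMAD4KO_Braf differed from BRAF by 0.63 ± 0.20 (interval 0.16 to 1.09, adjusted p = 0.268, 0.117 to 0.610 over the alternatives). The libraries labelled CDX2KO_Braf differed from BRAF by 0.68 ± 0.22 (interval 0.16 to 1.19, adjusted p = 0.0898, 0.0498 without SMAD4KO_Braf library 1). These comparisons share the BRAF libraries. Between the libraries labelled CDX2KO_Braf and SMAD4KO_Braf the difference was 0.05 (interval -0.47 to 0.57, adjusted p = 0.905).

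Bmp4, which in the intestine comes mainly from the mesenchyme under the epithelium, was near 0 throughout and was not tested. It had 0.0366, 0.0693 and 0.155 FPKM in SMAD4KO_Braf, 0.0192 and 0 FPKM in libraries labelled CDX2KO_Braf, and 0.0246, 0.179 and 0.0173 FPKM in BRAF. BRAF library 1 and SMAD4KO_Braf library 2 were highest, and these were also the libraries with the highest mesenchyme and smooth muscle marker sums of their groups. That sum, over 15 genes such as Acta2, Col1a1 and Dcn, was 13.0, 39.2 and 49.6 FPKM in SMAD4KO_Braf, 4.70 and 19.6 FPKM in libraries labelled CDX2KO_Braf, and 11.3, 118 and 29.4 FPKM in BRAF. The part of mesenchymal RNA in the Bmp4 values was not tested. Multiplied by relative depth, 4 of the 7 values above 0 came to between 0.0246 and 0.0259, so no order is read from them.

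**Figure D1:**
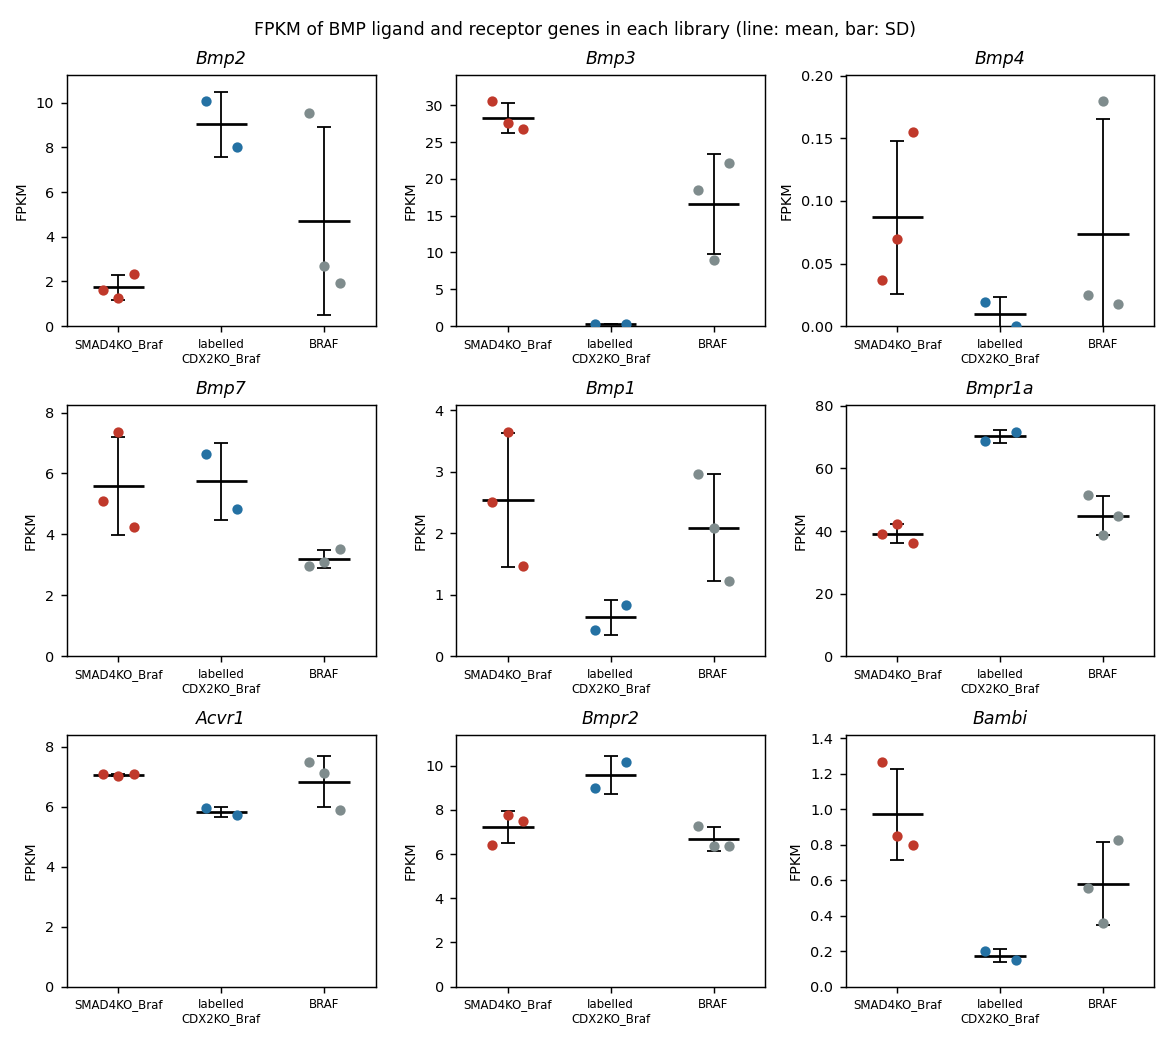
FPKM (vertical axis, linear, from 0) of each of the 9 genes in every library, one panel a gene, with SMAD4KO_Braf, libraries labelled CDX2KO_Braf and BRAF from left to right; points are libraries, lines are group means and bars are SD (n = 3, 2 and 3). Bmp3 is at 0.267 and 0.293 FPKM in the libraries labelled CDX2KO_Braf and at 8.96 or more in all others, and the single high Bmp2 point in BRAF is library 0 at 9.53.

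Taking Bmp2, Bmp3, Bmp4 and Bmp7 as one pool of ligand transcripts, the plot of stacked ligand levels shows a different leading gene in the libraries labelled CDX2KO_Braf. Bmp3 made up 79.2 ± 2.94% of the summed ligand FPKM in SMAD4KO_Braf (SD, n = 3), 1.58% and 2.23% in the libraries labelled CDX2KO_Braf, and 66.7 ± 11.7% in BRAF (SD, n = 3). Bmp2 made up 3.44 to 6.95% of it in SMAD4KO_Braf, 59.2% and 60.9% in libraries labelled CDX2KO_Braf, and 6.97 to 30.7% in BRAF. Bmp7 made up 12.7 to 20.3%, 36.9 to 39.1% and 9.53 to 20.7% of it in the same order of groups. The sum itself was 33.5 to 37.3 FPKM in SMAD4KO_Braf, 13.1 and 17.0 FPKM in libraries labelled CDX2KO_Braf, and 14.9 to 31.0 FPKM in BRAF. The shares must add to 100%, so a lower share of Bmp3 raises the others, and they are given without a test. The pool holds only the ligands followed here and leaves out Bmp8a and Bmp8b, which were highest in BRAF library 0, at 7.41 and 17.4 FPKM.

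**Figure D2:**
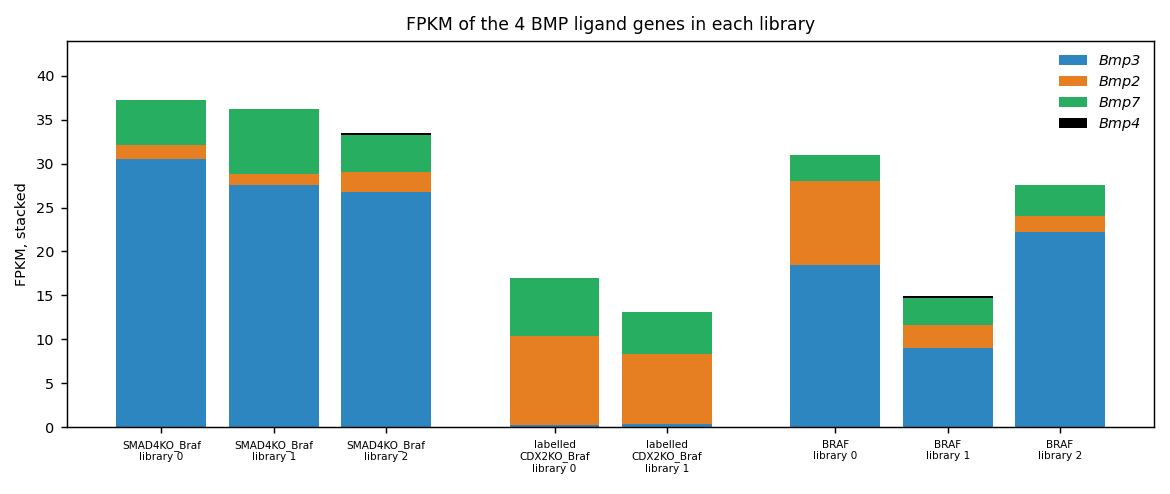
FPKM (vertical axis, stacked from 0) of the ligand genes Bmp3, Bmp2, Bmp7 and Bmp4 in each of the 8 libraries, with SMAD4KO_Braf, libraries labelled CDX2KO_Braf and BRAF from left to right. Bmp3 is the largest band in every SMAD4KO_Braf and BRAF library, and Bmp2 in both libraries labelled CDX2KO_Braf.

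Bmp1 shares its name with the ligands but is a metalloproteinase of the tolloid family, which trims procollagens and cleaves the BMP antagonist chordin. It had 2.502, 3.65 and 1.47 FPKM in SMAD4KO_Braf, 0.435 and 0.838 FPKM in libraries labelled CDX2KO_Braf, and 2.97, 2.08 and 1.23 FPKM in BRAF. Both libraries labelled CDX2KO_Braf were below every other library. The differences on the log2 scale, -0.89 ± 0.34 from BRAF (interval -1.68 to -0.10, adjusted p = 0.130, 0.0489 to 0.462 over the alternatives) and -1.08 ± 0.34 from SMAD4KO_Braf (interval -1.86 to -0.29, adjusted p = 0.0809, 0.0421 to 0.346), did not pass. SMAD4KO_Braf and BRAF overlapped, with a difference of 0.19 (interval -0.52 to 0.89, adjusted p = 0.779).

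Among the receptors, Bmpr1a (ALK3), the type I receptor for Bmp2 and Bmp4, had the highest level of the 9 genes in all 3 groups. Its level was 39.2, 42.2 and 36.2 FPKM in SMAD4KO_Braf, 68.8 and 71.7 FPKM in libraries labelled CDX2KO_Braf, and 51.4, 38.7 and 44.7 FPKM in BRAF. Both libraries labelled CDX2KO_Braf were above all 6 others, while SMAD4KO_Braf and BRAF overlapped. Bmpr1a rose in the libraries labelled CDX2KO_Braf, to a mean 1.56-fold that of BRAF (log2 difference 0.64 ± 0.14, interval 0.32 to 0.97, adjusted p = 0.0246) and 1.79-fold that of SMAD4KO_Braf (0.83 ± 0.14, interval 0.50 to 1.15, adjusted p = 0.0120). The call against BRAF ended when only these 2 groups were fitted (adjusted p = 0.0535), without BRAF library 2 (0.0704) and without library 0 (0.113) or library 1 (0.147) of those labelled CDX2KO_Braf. The call against SMAD4KO_Braf ended without either library labelled CDX2KO_Braf (adjusted p = 0.0745 and 0.0944). Over all alternatives the adjusted p ran from 0.00805 to 0.147 against BRAF and from 0.00421 to 0.0944 against SMAD4KO_Braf. SMAD4KO_Braf differed from BRAF by -0.19 (interval -0.48 to 0.11, adjusted p = 0.486).

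Acvr1 (ALK2), the other type I receptor, differed less. It had 7.09, 7.02 and 7.08 FPKM in SMAD4KO_Braf, 5.95 and 5.70 FPKM in libraries labelled CDX2KO_Braf, and 7.49, 7.12 and 5.88 FPKM in BRAF. The libraries labelled CDX2KO_Braf were below SMAD4KO_Braf without overlap and overlapped BRAF. No difference passed, at -0.19 from BRAF (interval -0.48 to 0.10, adjusted p = 0.350) and -0.24 from SMAD4KO_Braf (interval -0.53 to 0.05, adjusted p = 0.25) for the libraries labelled CDX2KO_Braf. SMAD4KO_Braf differed from BRAF by 0.05 (interval -0.21 to 0.31, adjusted p = 0.854). As a ratio of levels within a library, Bmpr1a was 5.12 to 6.01 times Acvr1 in SMAD4KO_Braf, 11.6 and 12.6 times in libraries labelled CDX2KO_Braf, and 5.44 to 7.60 times in BRAF.

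Bmpr2, the type II receptor that pairs with both, had 6.42, 7.78 and 7.48 FPKM in SMAD4KO_Braf, 8.98 and 10.2 FPKM in libraries labelled CDX2KO_Braf, and 7.29, 6.35 and 6.38 FPKM in BRAF. The libraries labelled CDX2KO_Braf were above all 6 others. Their difference of 0.46 ± 0.13 from BRAF (interval 0.16 to 0.76) had an adjusted p of 0.0538, and it passed without SMAD4KO_Braf library 0 (0.0458), after quantile normalization (0.0495) and when libraries were weighted (0.0155). Its adjusted p ran from 0.0155 to 0.253 over the alternatives. From SMAD4KO_Braf they differed by 0.36 (interval 0.06 to 0.66, adjusted p = 0.110). SMAD4KO_Braf and BRAF overlapped, at a difference of 0.10 (interval -0.17 to 0.37, adjusted p = 0.682).

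Bambi, a receptor-like protein without a kinase that blocks the receptor complex, was below 1 FPKM in all but 1 library and was not tested. It had 1.27, 0.851 and 0.796 FPKM in SMAD4KO_Braf, 0.198 and 0.148 FPKM in libraries labelled CDX2KO_Braf, and 0.557, 0.359 and 0.826 FPKM in BRAF. Both libraries labelled CDX2KO_Braf were below all others, and SMAD4KO_Braf overlapped BRAF. When every gene above 0 was tested, the difference from SMAD4KO_Braf was -0.74 with an adjusted p of 0.0395, that from BRAF was -0.42 with 0.166, and that of SMAD4KO_Braf from BRAF was 0.32 with 0.436.

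The order of levels, each a mean FPKM of a group, changed below Bmpr1a. In SMAD4KO_Braf, Bmp3 came next, then Bmpr2, Acvr1 and Bmp7, whose neighbours overlapped in range, then Bmp1, Bmp2 and Bambi, whose neighbours also overlapped, and last Bmp4. In the libraries labelled CDX2KO_Braf, Bmpr2 and Bmp2 came next with overlapping ranges, then Acvr1 and Bmp7 with overlapping ranges, then Bmp1, Bmp3, Bambi and Bmp4, each apart from the next. In BRAF, Bmp3 came second, followed by Acvr1, Bmpr2, Bmp2, Bmp7 and Bmp1, whose neighbours overlapped, and then by Bambi and Bmp4.

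Over the 9 genes, 7 passed the filter of 1 FPKM in at least 2 libraries. For SMAD4KO_Braf against BRAF, 0 of these 7 passed the adjusted threshold, where 0.0745% of all 12084 genes (3 higher, 6 lower) passed by limma. At an unadjusted p under 0.05 there were 2 of the 7, where 15.1% of all genes were. For Bmp3 and Bmp7 the groups did not overlap, as for 19.3% of all genes. For the libraries labelled CDX2KO_Braf against BRAF, 1 gene was higher (Bmpr1a) and 1 lower (Bmp3), where 14.1% of all genes (833 higher, 871 lower) passed. The groups did not overlap for 5 of the 7, where 48.4% of all genes did not. For the libraries labelled CDX2KO_Braf against SMAD4KO_Braf, the same 2 genes passed, 1 in each direction, where 11.6% of all genes passed. Here 6 of the 7 did not overlap, where 47.3% of all genes did not. The median log2 difference of the 7 genes was 0.10, 0.46 and 0.05 in these 3 comparisons, against -0.01, 0.02 and 0.02 over all genes tested.

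**Figure D3:**
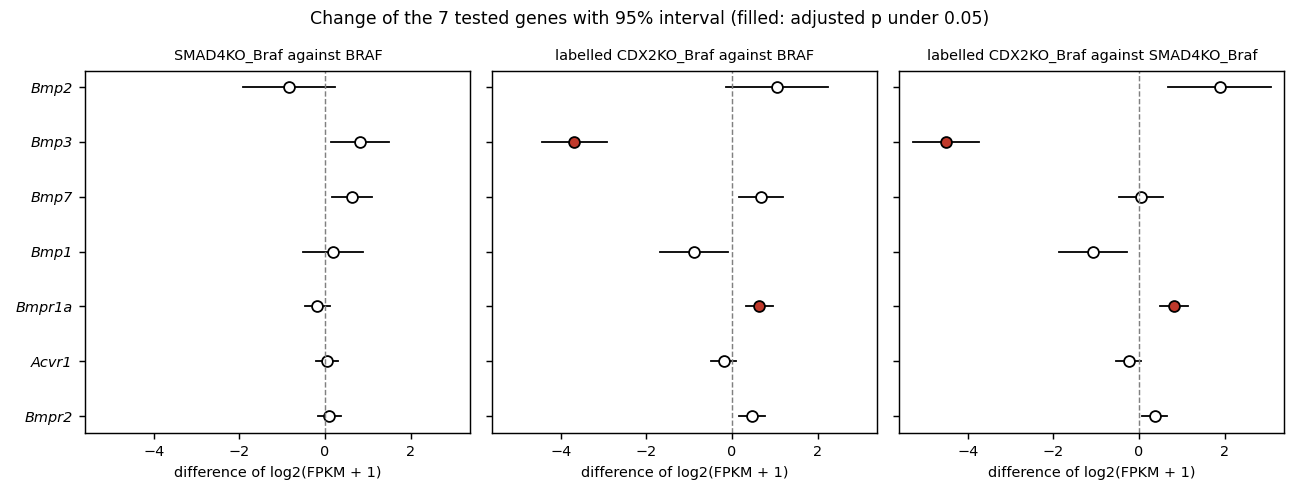
Difference of log2(FPKM + 1) (horizontal axis) with its 95% interval for the 7 tested genes in the 3 comparisons, the group named first minus the other; filled points passed an adjusted p of 0.05 (limma). Only Bmp3, to the left, and Bmpr1a, to the right, are filled, both in the 2 comparisons of the libraries labelled CDX2KO_Braf.

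Few genes passed the filter among the other BMP and GDF ligands and the activin, inhibin and nodal ligands. The TGF-beta ligands were not examined. Summed over the 17 other BMP and GDF ligand genes, BRAF held 7.30 to 34.4 FPKM. The same sum was 2.49 to 7.10 FPKM in SMAD4KO_Braf and 2.75 and 4.80 FPKM in libraries labelled CDX2KO_Braf. Of 17 other BMP and GDF ligand genes, 3 passed the filter, and 0 of them passed the test in any comparison. Bmp8a averaged 0.548 FPKM in SMAD4KO_Braf and 0.637 FPKM in the libraries labelled CDX2KO_Braf, and had 7.41, 2.92 and 1.204 FPKM in BRAF. Bmp8b averaged 1.82 and 0.129 FPKM in the same order and had 17.4, 2.76 and 2.32 FPKM in BRAF, so for both genes library 0 was far above the rest of BRAF. Between SMAD4KO_Braf and BRAF, Bmp8a differed by -1.45 (adjusted p = 0.262) and Bmp8b by -1.32 (adjusted p = 0.413). Between the libraries labelled CDX2KO_Braf and BRAF, Bmp8b differed by -2.44 (adjusted p = 0.0951) and Bmp8a by -1.35 (adjusted p = 0.124). Without BRAF library 0 these differences were -0.94 and -0.53 in SMAD4KO_Braf, and -1.64 for Bmp8b and -0.85 for Bmp8a in the libraries labelled CDX2KO_Braf. Bmp8a passed there without BRAF library 2 (adjusted p = 0.0404), and Bmp8b at a pseudocount of 0.1 (-4.44, adjusted p = 0.0402). The 2 genes are close copies of each other, so how reads were split between them is uncertain. Gdf15, a stress-induced cytokine, averaged 1.98 FPKM in SMAD4KO_Braf and 2.59 FPKM in the libraries labelled CDX2KO_Braf, and had 8.37, 0.418 and 12.3 FPKM in BRAF. Its differences from BRAF, -1.01 and -0.68 (adjusted p = 0.559 and 0.655), were -2.003 and -1.68 without BRAF library 1 and -0.39 and -0.06 without BRAF library 2. Of 8 activin, inhibin and nodal genes 0 passed the filter, and Inhba, Inhbe and Nodal were listed at 0 in all 8 libraries.

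Of 16 other type I, type II and co-receptor genes, 9 were tested. For the libraries labelled CDX2KO_Braf against BRAF, 1 of the 9 rose and 1 fell, where 14.1% of all genes passed. Tgfbr1, the type I receptor of TGF-beta, rose to 11.5 ± 0.629 FPKM (n = 2), against 6.70 ± 0.410 FPKM in BRAF (n = 3; log2 difference 0.70 ± 0.17, adjusted p = 0.0352). Neo1 (neogenin), a receptor for repulsive guidance molecules that act as BMP co-receptors, fell to 17.5 ± 2.09 FPKM (n = 2), against 30.8 ± 5.90 FPKM in BRAF (n = 3; -0.77 ± 0.18, adjusted p = 0.0303). The adjusted p of Tgfbr1 ran from 0.00725 to 0.183 over the alternatives and that of Neo1 from 0.0149 to 0.183. Tgfbr1 lost its call without any 1 library of BRAF (0.0654 to 0.0982) or of those labelled CDX2KO_Braf (0.183 and 0.140). It also did so without the filter (0.0626). Neo1 lost it without library 0 (0.0530) or 2 (0.0641) of BRAF, without library 0 (0.0902) or 1 (0.183) of those labelled CDX2KO_Braf, and when only the 2 groups were fitted (0.0565). For SMAD4KO_Braf against BRAF 0 of the 9 passed, and Acvr2a, an activin type II receptor, had the smallest adjusted p (difference -0.38, adjusted p = 0.234), followed by Tgfbr1 (0.40, adjusted p = 0.295) and the co-receptor Rgmb (0.37, adjusted p = 0.377). Tgfbr2, the type II receptor of TGF-beta, differed by 0.72 between the libraries labelled CDX2KO_Braf and BRAF (adjusted p = 0.180).

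Of 19 secreted antagonists and modulators, 5 were tested, and Nog (noggin) and Cer1 were listed at 0 in all libraries. Smoc2, a matricellular protein that can hold back BMP signalling and also marks crypt base stem cells, averaged 79.8 ± 20.6 FPKM in SMAD4KO_Braf (n = 3), 17.8 ± 6.43 FPKM in the libraries labelled CDX2KO_Braf (n = 2) and 34.2 ± 5.87 FPKM in BRAF (n = 3). It fell in the libraries labelled CDX2KO_Braf relative to SMAD4KO_Braf (-2.11 ± 0.29, adjusted p = 0.00656, 0.00187 to 0.0606 over the alternatives, the highest without library 1 of those labelled CDX2KO_Braf). Neither difference from BRAF passed, at 1.18 (adjusted p = 0.179) for SMAD4KO_Braf and -0.93 (adjusted p = 0.0811) for the libraries labelled CDX2KO_Braf. Twsg1 (twisted gastrulation) differed from BRAF by 0.35 in SMAD4KO_Braf (adjusted p = 0.339) and by 0.37 in the libraries labelled CDX2KO_Braf (adjusted p = 0.209). Dand5, an antagonist of the DAN family, differed by 0.07 in SMAD4KO_Braf (adjusted p = 0.826), and Nbl1, another of that family, by -1.08 in the libraries labelled CDX2KO_Braf (adjusted p = 0.1496). Of 4 tolloid and procollagen enhancer genes 1, Pcolce, was tested, and its difference from BRAF was -0.60 in SMAD4KO_Braf (adjusted p = 0.450) and -0.08 in the libraries labelled CDX2KO_Braf (adjusted p = 0.915).

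Inside the cell, 7 of 8 Smad genes and 10 of 10 genes of receptor and Smad turnover were tested. Smad4 fell in SMAD4KO_Braf (log2 difference from BRAF -2.19, adjusted p = 0.00163), and 0 of the other 6 Smad genes passed there, with Smad5 at 0.57 (adjusted p = 0.255) and Smad7 at -0.55 (adjusted p = 0.289). It was higher in the libraries labelled CDX2KO_Braf than in SMAD4KO_Braf (1.97, adjusted p = 0.000713). In the libraries labelled CDX2KO_Braf, Smad7, an inhibitory Smad, fell to 3.18 ± 0.475 FPKM (n = 2), against 7.34 ± 2.04 FPKM in BRAF (n = 3; -0.97 ± 0.22, adjusted p = 0.0296, 0.00872 to 0.173 over the alternatives). Wwp1, an E3 ubiquitin ligase of the Nedd4 family, rose to 9.30 ± 0.407 FPKM (n = 2), against 6.03 ± 0.495 FPKM in BRAF (n = 3; 0.55 ± 0.15, adjusted p = 0.0469, 0.0267 to 0.214). Leaving out 1 library ended the Smad7 call for BRAF libraries 0 (0.0763) and 1 (0.0703) and for libraries 0 (0.0990) and 1 (0.173) of those labelled CDX2KO_Braf. The Wwp1 call ended without any 1 library of BRAF (0.0807 to 0.115), of those labelled CDX2KO_Braf (0.166 and 0.214), or SMAD4KO_Braf library 2 (0.0780). The Smad7 call also ended without the filter (0.0618), with only the 2 groups fitted (0.0678) and when libraries were weighted (0.0646). The Wwp1 call also ended without the filter (0.0857), after median-ratio rescaling (0.0636) or quantile normalization (0.0524), and with sex as a term (0.0529). Not passing in the libraries labelled CDX2KO_Braf were Smad3 (0.60, adjusted p = 0.0502), Smad6 (0.76, adjusted p = 0.284, 0.0412 without library 1 of those labelled CDX2KO_Braf), the Smad4 ubiquitin ligase Trim33 (0.45, adjusted p = 0.0541) and Fkbp1a, which keeps type I receptors inactive (0.44, adjusted p = 0.131). Among turnover genes in SMAD4KO_Braf, Wwp2 (-0.18, adjusted p = 0.448), Nedd4l (-0.20, adjusted p = 0.507) and Wwp1 (0.16, adjusted p = 0.560) had the smallest adjusted p.

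At the far end of the pathway, 7 of 13 direct BMP target genes were tested, with a median log2 difference from BRAF of -0.55 in SMAD4KO_Braf (-0.27 over the 6 left without BRAF library 1, and -0.25 when libraries were weighted). In libraries labelled CDX2KO_Braf that median was 0.76, the value of Smad6 (4.39 and 0.813 FPKM, against 0.652, 1.09 and 0.825 FPKM in BRAF). Over the same 7 genes the median was 1.55 with library 0 alone of those labelled CDX2KO_Braf and -0.03 with library 1 alone, a check added after seeing the data. Id3, one of the Id transcriptional inhibitors, fell in SMAD4KO_Braf, to 7.88 FPKM against 34.6 FPKM in BRAF (-2.01, adjusted p = 0.0204, up to 0.152 without SMAD4KO_Braf library 1). It also lost that call without SMAD4KO_Braf library 0 (0.0630), without BRAF library 0 (0.0889) and without the filter (0.0742). Id1 differed by -0.79 there (adjusted p = 0.289). In the libraries labelled CDX2KO_Braf Id1 rose to 274 FPKM against 51.1 FPKM in BRAF (2.40, adjusted p = 0.00425, up to 0.0396). Id3 rose there to 96.0 FPKM (1.45, adjusted p = 0.00612, up to 0.0538 without library 0 of those labelled CDX2KO_Braf). Id2 rose to 62.8 FPKM against 12.6 FPKM in BRAF (2.32, adjusted p = 0.0296), a call that ended without BRAF library 0 (0.0732) or 2 (0.0841), without library 0 (0.175) or 1 (0.107) of those labelled CDX2KO_Braf, and without the filter (0.0576). Smad7, also a BMP target, fell there as given above (-0.97, adjusted p = 0.0296), so 3 of the 7 rose and 1 fell. Over all genes tested, 14.1% passed in that comparison. Against SMAD4KO_Braf the libraries labelled CDX2KO_Braf were higher in Id3 (3.46, adjusted p = 0.000295), Id1 (3.19, adjusted p = 0.00187) and Id2 (2.82, adjusted p = 0.0170, up to 0.122). The Id2 call there ended without library 0 (0.122) or 1 (0.0876) of those labelled CDX2KO_Braf.

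**Figure D4:**
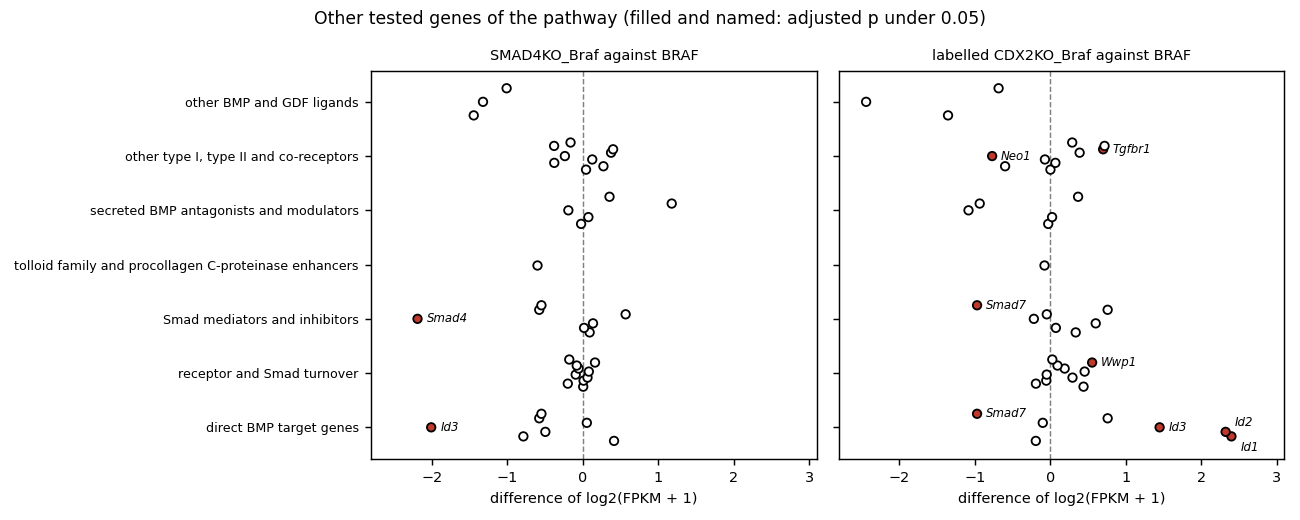
Difference of log2(FPKM + 1) from BRAF (horizontal axis) for the tested genes of 7 other pathway lists (rows), in SMAD4KO_Braf on the left and the libraries labelled CDX2KO_Braf on the right; each point is a gene, and filled, named points passed an adjusted p of 0.05 (limma). Smad4 and Id3 are filled on the left, and Id1, Id2, Id3, Tgfbr1, Wwp1, Neo1 and Smad7 (in 2 lists) on the right.

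Marker genes of other cell types, drawn in the plot of marker sums, changed mainly in the enterocyte and Paneth cell lists. For SMAD4KO_Braf against BRAF 0 markers of any list passed, where 0.0745% of all genes did. Of the 8 epithelial markers, Vil1 fell in the libraries labelled CDX2KO_Braf, to 363 FPKM against 697 FPKM in BRAF (-0.92, adjusted p = 0.0494), and the other 7 did not pass. The Vil1 call ended without any 1 library of BRAF (0.0703 to 0.107) and without the filter (0.0984). It also ended with only the 2 groups fitted (0.0617) and without SMAD4KO_Braf library 1 (0.0649) or 2 (0.0731). Without library 0 or 1 of those labelled CDX2KO_Braf the Vil1 difference was -0.99 or -0.86. Mature enterocyte markers (10 genes, such as Alpi and Fabp1) summed to 6902 to 20779 FPKM in SMAD4KO_Braf, 3688 and 8650 FPKM in libraries labelled CDX2KO_Braf, and 14012 to 30090 FPKM in BRAF. Of the 10, 6 fell in the libraries labelled CDX2KO_Braf relative to BRAF. The calls of Sis and Lct held under every alternative run. Krt20 lost its call without BRAF library 0 (adjusted p = 0.0545) or 1 (0.0518), and Slc5a1 without BRAF library 2 (0.0621). Fabp1 lost its call without BRAF library 0 (0.0848) or 2 (0.0868) and without the filter (0.242). Anpep lost it without any 1 library of BRAF (0.0702 to 0.101) or SMAD4KO_Braf (0.0566 to 0.0652). It also did so without the filter (0.0936), with only the 2 groups fitted (0.0802) and with sex as a term (0.0622). Without library 1 of those labelled CDX2KO_Braf the differences were -1.76 (Krt20), -2.43 (Slc5a1), -2.12 (Fabp1) and -1.01 (Anpep). Over all genes tested, 14.1% passed for these libraries against BRAF and 11.6% against SMAD4KO_Braf, the shares to set beside the marker counts here. Paneth cell markers (7 genes, such as Lyz1) summed to 15552 to 24182 FPKM in SMAD4KO_Braf, 5198 and 6826 FPKM in libraries labelled CDX2KO_Braf, and 8900 to 17877 FPKM in BRAF. Of the 7, 3 fell in the libraries labelled CDX2KO_Braf relative to BRAF: Lyz1, Itln1 and Defa3. Lyz1 lost the call without any 1 library of BRAF (adjusted p = 0.0570 to 0.0785), without the filter (0.147) and with only the 2 groups fitted (0.0568). Itln1 lost it without BRAF library 0 (0.0901) or 2 (0.0872), without SMAD4KO_Braf library 1 (0.0617) and without the filter (0.131). It also did so with only the 2 groups fitted (0.0600) and with sex as a term (0.0647). A block on the column numbers ended all 3 calls (Lyz1 0.0512, Itln1 0.101, Defa3 0.0547). Without library 1 of those labelled CDX2KO_Braf the differences were -1.42, -1.49 and -1.71 in the same order. Mmp7 did not follow, at 448 and 216 FPKM in the libraries labelled CDX2KO_Braf and 237, 130 and 243 FPKM in BRAF. Mean sums of Paneth and enterocyte markers were 2.12-fold and 3.26-fold lower there than in BRAF. Single enterocyte genes ranged widely, with Sis (sucrase-isomaltase) 166-fold, Lct (lactase) 197-fold and Apoa4 2.13-fold lower than in BRAF by mean FPKM, and the difference of Apoa4 did not pass (adjusted p = 0.578). T cell and intraepithelial lymphocyte markers (10 genes) summed to 51.3 to 470 FPKM in SMAD4KO_Braf, 15.4 and 67.1 FPKM in libraries labelled CDX2KO_Braf, and 33.7 to 994 FPKM in BRAF, with 0 of 10 passing in any comparison by limma and 0 at an unadjusted p under 0.05. Of the mesenchyme markers, 7 of 15 were tested and 0 passed in any comparison, also at an unadjusted p under 0.05. Crypt base stem cell markers (8 genes) summed to 347 to 671 FPKM in SMAD4KO_Braf, 281 and 510 FPKM in libraries labelled CDX2KO_Braf, and 254 to 532 FPKM in BRAF. Of these, 1 rose in the libraries labelled CDX2KO_Braf relative to BRAF, Tnfrsf19 (0.95, adjusted p = 0.0315, 0.0127 to 0.0761 over the alternatives). Tnfrsf19 met the filter only through these libraries, at 1.75 and 1.59 FPKM, and lay at 0.190 to 0.972 FPKM in all others. Its call is therefore not read as a result. Relative to SMAD4KO_Braf 2 fell there, Smoc2, given above, and Lgr5 (-0.89, adjusted p = 0.0342, 0.0127 to 0.187). Leaving out 1 library ended the Tnfrsf19 call for each of BRAF (0.0515 to 0.0761) and for SMAD4KO_Braf library 2 (0.0503), and the Lgr5 call for each of SMAD4KO_Braf (0.0522 to 0.1) and of those labelled CDX2KO_Braf (0.116 and 0.187). The Tnfrsf19 call also ended at a pseudocount of 0.1 (0.0579), and the Lgr5 call without the filter (0.0678) or at a minimum of 5 FPKM (0.0692). Endothelial markers summed to 1.42 to 3.19 FPKM over all 8 libraries, with Emcn listed at 0 throughout. The part of cell content in the changes of Bmp3, Bmpr1a and the other genes was not tested.

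**Figure D5:**
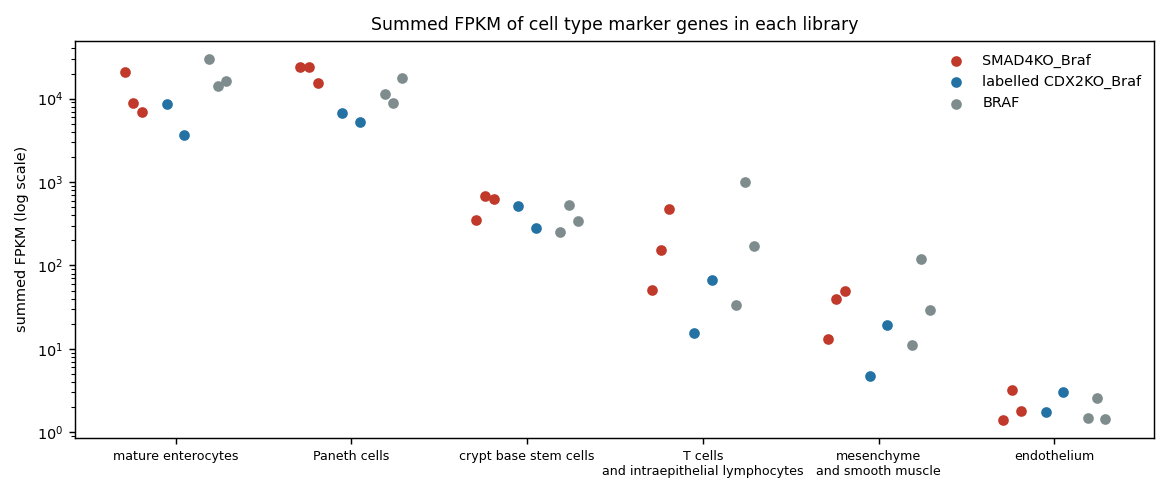
Summed FPKM (vertical axis, log scale) of 6 cell type marker lists in each library, with SMAD4KO_Braf, libraries labelled CDX2KO_Braf and BRAF from left to right within each list; each point is a library. The libraries labelled CDX2KO_Braf are lowest for Paneth cell markers, at 5198 and 6826, and the lymphocyte and mesenchyme sums spread widely within groups.

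Genes whose pattern across the 8 libraries was most like that of a BMP gene were found by the root mean square (RMS) difference of log2(FPKM + 1), each gene centred on its mean, among 11134 genes. Nearest to Bmp3 were Isx, at 0.53, and Sept5, at 0.54, where the RMS deviation of Bmp3 from its own mean was 1.84. Isx averaged 61.8 FPKM in SMAD4KO_Braf, 2.197 FPKM in the libraries labelled CDX2KO_Braf and 72.1 FPKM in BRAF. Nearest to Bmpr1a were Efcab14 and Dusp4, each within 0.05, where Bmpr1a itself deviated by 0.35. Nearest to Bmp2 were Cxcl1 (0.32) and Ifit2 (0.34), for a deviation of 0.90, to Bmp7 Dctd (0.15) and Gnl3 (0.16), for 0.37, and to Bmp1 Unc93a (0.18) and Tmem150a (0.20), for 0.54. These likenesses are descriptions over libraries that share groups, depth and cell content, and they were given no test.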

How the data were processed

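The values are FPKM per gene, deposited by the authors in 1 table. Per the submitters' processing notes, TopHat2 2.1.0, Cuffnorm 2.2.1, Cuffdiff 2.2.1 and the mouse build mm9 were used, with no role given to each. Reads were 50 bp from 1 end of TruSeq v2 libraries, per the labels' protocols. The columns count from 0 and the sample titles from 1, so a column gives its group but not its sample, and libraries are called here by their column number. The table's 3 control columns belong to none of the samples and were left unused. From the authors' deposited FPKM, log2(FPKM + 1) was computed, since FPKM are no counts, and 12084 genes with at least 1 FPKM in at least 2 libraries were tested. All 3 groups were fitted together in limma 3.58.1 (R 4.3.3) using a mean-variance trend, two-sided, adjusted by Benjamini-Hochberg within each comparison, at a threshold of 0.05. The fit was tested on simulated data. Figures used Python 3.11.15, pandas 2.3.3 and matplotlib 3.10.9.

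The members and gene lists were chosen with earlier results of these data known. Every member is named, and of each other pathway list any called gene and the 3 tested genes with the smallest adjusted p in each comparison with BRAF. The fit was repeated with sex as a term, with a replicate block, with library weights, without the trend, on only the 2 groups compared, after quantile normalization or median-ratio rescaling, at a pseudocount of 0.1, at a minimum of 5 FPKM or none, and without each library. Promoters are from a RefSeq table on GRCm38.p6, another build than mm9, so coordinates are those of the reference only. Same-numbered libraries of SMAD4KO_Braf and BRAF had correlations of deviations of 0.24, -0.05 and 0.00, so the numbers were not taken as pairs.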

Additional observations from a re-analysis of the deposited data

How the results depend on the processing

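Of the alternatives for the members' log2 changes, 356 kept direction and side of the threshold, 12 newly passed, 8 no longer passed and 5 reversed, and the cause was not tested. SMAD4KO_Braf against BRAF gave 9 genes of all, 5 without a filter, 1069 with library weights, 78 with sex as a term, and 5 to 25 without 1 library. The libraries labelled CDX2KO_Braf against BRAF gave 1704, 2602 with library weights, and 409 to 1833 without 1 library. Against SMAD4KO_Braf they gave 1402, 2447 with library weights, and 234 to 1423 without 1 library. Of the members, 2 passed in each of these comparisons and 1 to 3 without 1 library, and 1 passed against BRAF when only the 2 groups were fitted. No member passed for SMAD4KO_Braf against BRAF under any alternative run. Reversed values were those of SMAD4KO_Braf against BRAF for Bmp1, -0.031 without BRAF replicate 2 (the library of that number) and -0.034 without SMAD4KO_Braf replicate 1 (-0.034 to 0.42 without 1 library), and for Acvr1, -0.042 without BRAF replicate 2 (-0.042 to 0.11). For Bmp7 in the libraries labelled CDX2KO_Braf against SMAD4KO_Braf they were -0.10 without SMAD4KO_Braf replicate 2 and -0.14 without CDX2KO_Braf replicate 0 (-0.14 to 0.24). With a replicate block on the column numbers, which do not pair the libraries, 10, 1181 and 805 genes passed in the 3 comparisons, and 0, 2 and 2 members, Bmp3 and Bmp1 in place of Bmpr1a (adjusted p = 0.0779 and 0.0509). The block also ended the calls of Tgfbr1 (0.0803), Wwp1 (0.0762) and Id2 (0.0554) against BRAF in the libraries labelled CDX2KO_Braf and of Id3 in SMAD4KO_Braf (0.0694). With 1 library labelled CDX2KO_Braf left, it is assumed to vary like the other groups. A pseudocount of 0.1 gave Bmp3 differences of -5.35 and -6.22. The depth is unknown, so values near 0 such as those of Bmp4 carry no interval.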

Other observations

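The summed FPKM of all 9 genes was 86.5 to 97.7 in SMAD4KO_Braf, 101.4 and 101.7 in libraries labelled CDX2KO_Braf, and 69.5 to 100.7 in BRAF, and the libraries labelled CDX2KO_Braf held the highest values of the 8. Bmpr1a was 4.85 to 6.10 times Bmpr2 in SMAD4KO_Braf, 7.05 and 7.67 times in libraries labelled CDX2KO_Braf, and 6.10 to 7.05 times in BRAF.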
